A study of Homo sapiens with 17 samples.

Results

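The 35 genes described here are targets of p53, chosen by symbol from a fixed list of genes known to be switched on by that factor, among 63187 genes in the count table. HepG2, a human hepatocellular carcinoma cell line, was grown for 4 days with 5-azacytidine at 0, 2 or 10 µM. 5-azacytidine is a cytidine analogue that is built into RNA and DNA and traps DNA methyltransferases. The medium was replaced daily, and the labels give all cells as WT with no other treatment. RNA was sequenced from 3 libraries at each dose. Open chromatin was mapped by ATAC-seq, an assay based on transposase insertion into accessible DNA, in 3 untreated libraries, 3 from the 2 µM dose and 2 from the 10 µM dose. The study's design text calls these biological replicates without saying which cultures they came from, so the p-values measure the spread between these libraries. All 35 genes passed the filter on low counts, and 113 of the 58372 ATAC peaks carried the symbol of 30 of them. FBXW7, TP53INP1, TRIAP1, TRIM22 and XPC had no assigned peak.

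p53 is a transcription factor that is degraded while cells are healthy, because its own target MDM2 marks it for destruction. DNA damage, stalled replication and stress on ribosome production stabilise it. It then binds response elements made of 2 copies of a 10-base motif near its target genes. The products of those genes stop the cell cycle, repair DNA, limit oxidative stress or start cell death, and MDM2, PPM1D and CCNG1 feed back to lower p53 again.

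The RefSeq promoter windows, from 250 bases before to 50 bases after a gene start (GRCh38.p14), were searched for that response element because it is the feature through which p53 reads these genes. The motif was the p53 response element decamer, searched on both strands, with up to 13 bases between the 2 copies, up to 2 mismatches over both copies, and the C and G of each copy's core required. The windows covered 29 of the 35 members through 45 promoters, since several genes have more than 1 start. A match lay in 6 of these 45 promoters (13.3%), against 1030 of 35116 RefSeq promoters (2.93%). The members were listed because p53 is known to act on them, so the higher share describes the list. The matches belong to 5 genes and are shown 5′ to 3′ on the gene's strand, with both copies in capitals and up to 20 flanking bases in lower case. MDM2 accounts for 2 of the 6 promoters, through overlapping windows that hold the same site.
FAS: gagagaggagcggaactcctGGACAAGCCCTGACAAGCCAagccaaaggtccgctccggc
DDB2: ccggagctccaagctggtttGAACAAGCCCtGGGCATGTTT
MDM2: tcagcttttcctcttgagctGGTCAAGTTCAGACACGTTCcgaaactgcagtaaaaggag
AEN: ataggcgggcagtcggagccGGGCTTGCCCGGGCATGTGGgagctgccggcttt
FDXR: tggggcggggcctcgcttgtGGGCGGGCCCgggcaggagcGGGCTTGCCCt
The FAS stretch is chr10:88991289-88991348, the DDB2 stretch chr11:47214959-47214999 and the MDM2 stretch chr12:68808903-68808962. The AEN stretch is chr15:88621286-88621339 and the FDXR stretch chr17:74872995-74873045. FDXR lies on the minus strand and the others on the plus strand. The DDB2 element had 0 mismatches and 1 base between its copies, and began 5 bases after the start. The FAS, MDM2 and AEN elements had 2 mismatches and no spacer, and the FDXR element had 2 mismatches and a spacer of 10 bases. A match is a description of these letters and not a measured binding site.

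All 5 elements lay under an ATAC peak, so the chromatin around them could be followed across the doses. Signal is given as CPM, the counts in a peak scaled to the library's total counts in peaks and its composition. It was tested with edgeR's quasi-likelihood test with Benjamini-Hochberg adjustment over all 58372 peaks, with a call at an adjusted p under 0.05. The MDM2 element's peak, chr12:68808645-68809145, had 30.3, 30.9 and 28.8 CPM at 0 µM, 30.9, 26.8 and 30.4 CPM at 2 µM, and 34.2 and 28.3 CPM at 10 µM, with overlapping groups and an adjusted p of 0.722 at 10 against 0 µM. The FAS element's peak, chr10:88991122-88991622, averaged 14.2, 14.3 and 14.0 CPM across the 3 doses (adjusted p = 0.925 at 10 against 0 µM). Both peaks were present in every untreated library, and their dose groups overlapped. The AEN element's peak, chr15:88621022-88621522, averaged 23.5 CPM at 0 µM and 27.0 CPM at 10 µM (adjusted p = 0.284). The FDXR element's peak, chr17:74872992-74873492, averaged 39.3 CPM at 0 µM and 50.8 CPM at 10 µM (adjusted p = 0.0768), and passed the threshold only without 10 µM library 2 (adjusted p = 0.0294) or when libraries were blocked by replicate number (adjusted p = 0.0403). The DDB2 element's peak, chr11:47214701-47215201, was the only called member of the 5: it had 13.6, 18.4 and 19.3 CPM at 0 µM against 13.7 and 9.79 CPM at 10 µM, and fell by 0.53 on the log2 scale (SE 0.203, adjusted p = 0.0265). The DDB2 groups overlapped, and its call was lost in 5 of the alternatives tried, among them DESeq2 (adjusted p = 0.0544) and leaving out 10 µM library 2 (adjusted p = 0.103).

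Each RNA library held 35553052 to 46430168 counts and each ATAC library 2896671 to 7864321 counts in peaks. Libraries 3 of 0 and 2 µM stood apart in mitochondrial mRNA, which made up 0.271% and 0.231% of their counts against 0.0664% to 0.143% in the other 7, and values without both are given beside several members. The hepatocyte label was checked with 7 marker genes, whose summed level was 20400 to 31400 CPM at 0 µM, 9710 to 15900 CPM at 2 µM and 587 to 835 CPM at 10 µM. These markers of the cells' own identity were lowest at 10 µM, the dose of most member calls below, and their part in those results was not tested. The 6 fibroblast markers summed to 5.43 to 24.4, 3.52 to 13.1 and 0.519 to 0.789 CPM at 0, 2 and 10 µM. The 5 endothelial markers summed to 1.49 to 10.5, 2.91 to 8.74 and 0.407 to 0.950 CPM, and the 4 cholangiocyte markers to 388 to 508, 498 to 982 and 495 to 1190 CPM. The rise in the cholangiocyte sum came from KRT19, which averaged 187, 533 and 843 CPM. SOX9 averaged 92.4, 55.3 and 38.4 CPM, EPCAM 151, 156 and 61.8 CPM, and KRT7 0.247, 0.220 and 0.237 CPM. The 6 leukocyte markers summed to 2330 to 3450, 1120 to 1700 and 58.0 to 89.7 CPM, nearly all of it from LYZ (2326 to 3447 CPM at 0 µM), while the defining marker PTPRC had 0 counts in every library (a count of 0 allows up to 3).

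At 10 µM the p53 targets changed in both directions, as did the genes as a whole. Of the 35 genes, 5 rose against 0 µM (14.3%, where 23.0% of all 18999 tested genes rose) and 12 fell (34.3%, where 25.1% of all genes fell), by edgeR's quasi-likelihood test with Benjamini-Hochberg adjustment over all tested genes. The risers were the stress kinases PLK2 and PLK3, the growth arrest gene GADD45A, the nuclease gene AEN and the repair gene XPC. The genes that fell included the death genes NINJ1, DRAM1, CYFIP2, PIDD1, SPATA18 and APAF1, the feedback genes CCNG1 and PPM1D, the metabolic genes FDXR and SESN1, the repair gene DDB2, and TRIM22. The members' median log2 change was 0.01, beside -0.02 over all tested genes, and the members ran from -2.18 to 2.70. The count of risers depended on the scaling: with total counts in place of composition scaling, which put the median of all genes at 0.24, 12 members rose, and the share of rises among all calls went from 47.8% to 60.7%. Without libraries 3 of 0 and 2 µM, 8 members rose and 15 fell, among them 4 of the 5 risers and all 12 that fell with every library in. Over all genes, that setting took the rises from 4371 to 4953 and the falls from 4767 to 5004. In bulk RNA, fewer cells expressing a gene and less RNA per cell cannot be told apart.

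At 2 µM 2 of the 35 members were called. PLK2 rose and CCNG1 fell against 0 µM, which is 2.86% of the members in each direction, where 3.22% of all genes rose and 1.06% fell. At an unadjusted p under 0.05, 5 members were higher and 1 was lower. In 5 members (PLK2, XPC, RRM2B, TP53I3 and TRIM22) all 2 µM libraries lay above all untreated ones, and in 3 (CCNG1, SESN1 and DRAM1) all lay below. The shares of all genes with an unadjusted p under 0.05 or without overlap were not counted. These counts therefore describe the members and do not set them apart from other genes. Both counts of calls changed with the setting: leaving out 1 library at a time gave 0 to 3 risers and 0 to 1 that fell, total counts gave 4 and 0 (with rises among all calls at 90.6% in place of 75.2%), and leaving out libraries 3 of 0 and 2 µM gave 5 and 2. Over all genes, leaving out those libraries took the rises from 611 to 1382 and the falls from 202 to 788. The median of the 35 log2 changes was 0.05, beside -0.01 over all genes. Between the 2 doses, 10 against 2 µM, 4 members rose (11.4%, where 16.8% of all genes rose) and 11 fell (31.4%, where 21.6% of all genes fell), with a median of -0.20 beside -0.02 over all genes. The 4 genes that rose and the 11 that fell between 2 and 10 µM also rose or fell between 0 and 10 µM, and both comparisons share the 10 µM libraries. In all, 17 members were called in at least 1 comparison and 18 in none.

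**Figure D1:**
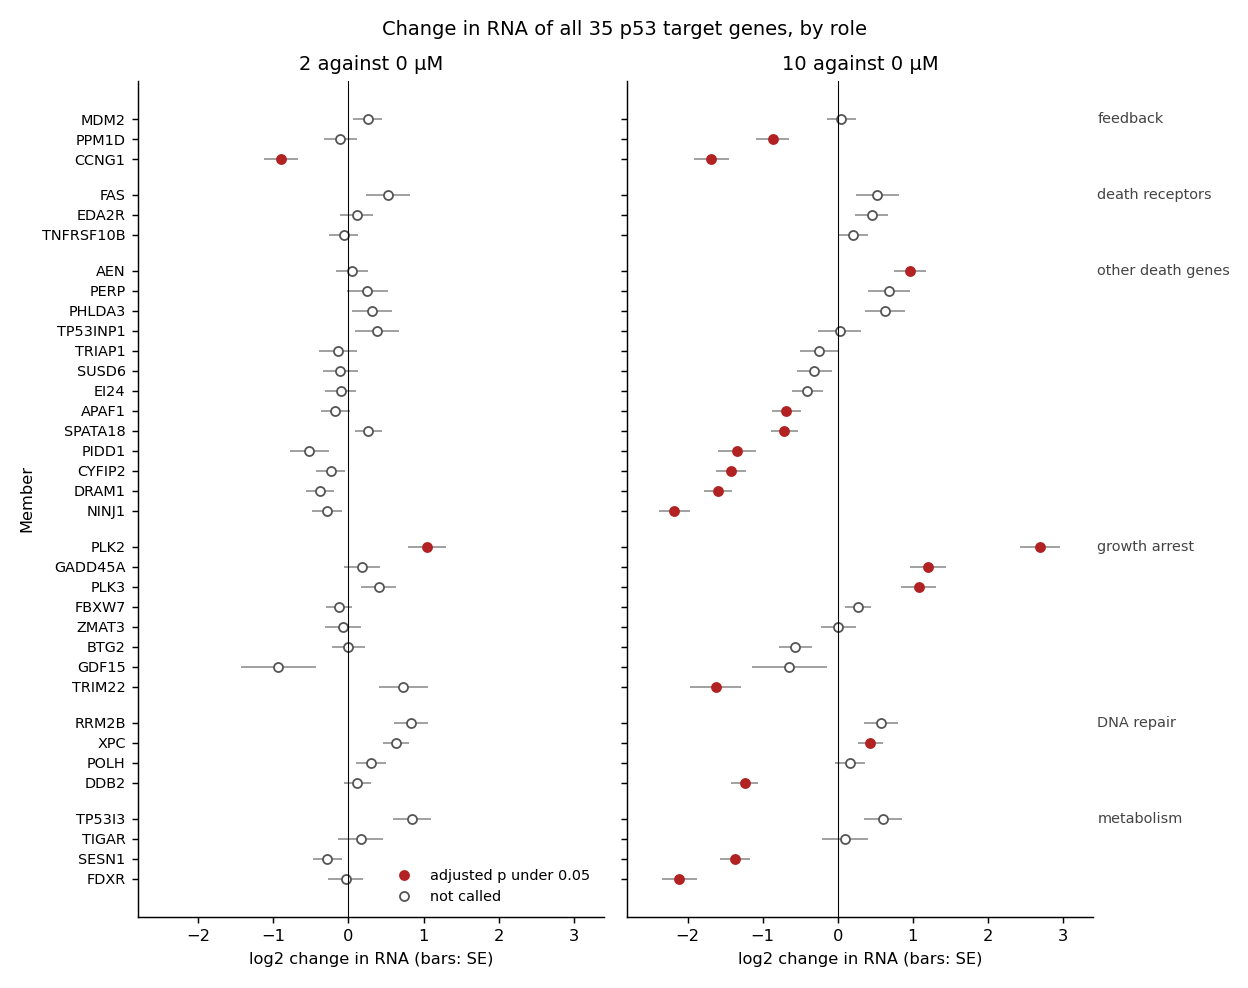
Log2 change in RNA (x axis) of each of the 35 p53 target genes (y axis, grouped by role) at 2 against 0 µM (left) and 10 against 0 µM (right); points are edgeR estimates from 3 libraries a dose, bars are the standard error, and filled points passed the threshold. At 2 µM only PLK2 and CCNG1 are filled, and at 10 µM 5 genes are filled to the right of 0 and 12 to its left.

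The feedback genes did not move as a group. MDM2 encodes the ubiquitin ligase that marks p53 for degradation. It had 315, 412 and 348 CPM at 0 µM, 361, 515 and 407 CPM at 2 µM and 392, 378 and 343 CPM at 10 µM. The 3 doses overlapped. At 2 µM MDM2 differed from 0 µM by 0.25 on the log2 scale (SE 0.188, adjusted p = 0.522). At 10 µM the difference was 0.05 (SE 0.188, adjusted p = 0.847), and it turned to -0.04 without 0 µM library 1. PPM1D encodes the phosphatase that removes activating phosphates from p53 and its kinases. It had 55.5, 63.6 and 34.1 CPM at 0 µM, 48.3, 47.6 and 46.4 CPM at 2 µM and 26.3, 31.5 and 26.1 CPM at 10 µM. All 3 libraries at 10 µM lay below all 6 others. PPM1D fell by 0.87 on the log2 scale against 0 µM (SE 0.222, adjusted p = 0.00587). It fell by 0.76 against 2 µM (adjusted p = 0.0159, lost without 10 µM library 1 or 3, at 0.0703 and 0.0733).

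CCNG1, which encodes cyclin G1 and guides a phosphatase to MDM2, fell in steps with dose. Its levels were 277, 404 and 475 CPM at 0 µM, 159, 241 and 218 CPM at 2 µM and 135, 114 and 111 CPM at 10 µM. No library of a higher dose reached the range of a lower one. CCNG1 fell by 0.90 on the log2 scale at 2 µM (SE 0.227, adjusted p = 0.0421) and by 1.68 at 10 µM (SE 0.231, adjusted p = 7.23e-05). The call at 2 µM was kept when libraries were blocked by replicate number within these 2 doses (adjusted p = 0.0277). It was lost on leaving out any single library other than 0 µM library 1 (adjusted p from 0.0551 to 0.197), with total counts (0.0783) and in a fit of these doses alone (0.131). Its fall between 2 and 10 µM, by 0.78 (adjusted p = 0.016), was lost without 2 µM library 2, 10 µM library 2 or 10 µM library 3 (0.0574 to 0.066).

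None of the 3 genes grouped as death receptors was called in any comparison, by edgeR's quasi-likelihood test or by DESeq2. None of them had an unadjusted p under 0.05 in the edgeR fit. At 10 against 0 µM, 23.0% of all genes rose and 25.1% fell. FAS and TNFRSF10B encode receptors at the cell surface that start caspase activation when their ligands bind. FAS had 23.5, 41.7 and 15.9 CPM at 0 µM, 39.5, 45.7 and 31.9 CPM at 2 µM and 39.8, 40.7 and 36.4 CPM at 10 µM. The untreated and treated libraries overlapped. The adjusted p at 10 µM was 0.15 over all libraries, and FAS passed the threshold only without 0 µM library 2 (log2 change 0.97, adjusted p = 0.00688), with total counts (0.048) or with the block over all doses (0.0383). TNFRSF10B, the TRAIL receptor DR5, had 263, 253 and 401 CPM at 0 µM and 336, 372 and 350 CPM at 10 µM. Its highest library was 0 µM library 3, without which its change of 0.21 became 0.43 and passed (adjusted p = 0.0415; 0.0308 without 2 µM library 3 as well). EDA2R, a receptor of the same superfamily, had 13.2, 15.9 and 18.6 CPM at 0 µM and 23.7, 23.7 and 17.9 CPM at 10 µM (log2 change 0.45, adjusted p = 0.104). EDA2R passed with total counts (0.0187) and without libraries 3 of 0 and 2 µM (0.0423).

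Of the 13 other death genes, 6 fell at 10 against 0 µM (46.2%, where 25.1% of all genes fell) and 1 rose (7.69%, where 23.0% rose). NINJ1, whose product ruptures the plasma membrane of dying cells, had 112, 106 and 91.5 CPM at 0 µM, 100, 63.1 and 89.8 CPM at 2 µM and 21.6, 20.7 and 26.0 CPM at 10 µM. It fell by 2.18 on the log2 scale against 0 µM (SE 0.21, adjusted p = 4.42e-06), the largest fall of any member in that comparison. NINJ1 fell by 1.89 against 2 µM (adjusted p = 2.09e-05). DRAM1, which links p53 to autophagy, went from 80.1, 69.5 and 97.4 CPM at 0 µM through 58.1, 67.3 and 64.9 CPM at 2 µM to 25.1, 31.2 and 25.3 CPM at 10 µM. The 3 doses did not overlap, although only the changes to 10 µM passed. DRAM1 fell by 1.60 against 0 µM (SE 0.189, adjusted p = 2.15e-05) and by 1.22 against 2 µM (adjusted p = 0.000275). CYFIP2, a p53-inducible partner of the FMRP protein, had 64.5, 43.1 and 58.8 CPM at 0 µM, 46.0, 42.4 and 52.8 CPM at 2 µM and 22.5, 19.2 and 20.5 CPM at 10 µM. CYFIP2 fell by 1.42 against 0 µM (SE 0.198, adjusted p = 8.09e-05) and by 1.18 against 2 µM (adjusted p = 0.000509).

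PIDD1, APAF1 and SPATA18 were the other 3 of these genes that fell at 10 µM. PIDD1, the scaffold of the complex that activates caspase-2, had 28.3, 23.8 and 20.2 CPM at 0 µM, 17.9, 11.3 and 21.2 CPM at 2 µM and 8.78, 11.1 and 8.59 CPM at 10 µM. PIDD1 fell by 1.34 on the log2 scale against 0 µM (SE 0.258, adjusted p = 0.000909). Its fall against 2 µM, by 0.82 (adjusted p = 0.0222), was lost without 2 µM library 1, 2 µM library 3, 10 µM library 1 or 10 µM library 3 (0.062 to 0.0967). APAF1, the core of the apoptosome that activates caspase-9, had 42.3, 40.6 and 57.5 CPM at 0 µM, 34.7, 46.9 and 42.8 CPM at 2 µM and 26.9, 29.0 and 31.5 CPM at 10 µM. Its 10 µM libraries lay below all others. APAF1 fell by 0.68 against 0 µM (SE 0.198, adjusted p = 0.0122), which did not pass without 10 µM library 1 (0.0642) or with total counts (0.0962). The change of APAF1 against 2 µM was -0.51, with an adjusted p of 0.0577 (0.0429 without libraries 3 of 0 and 2 µM). SPATA18, which takes part in the repair and removal of mitochondria, had 27.0, 29.4 and 27.9 CPM at 0 µM, 33.7, 38.9 and 28.9 CPM at 2 µM and 17.2, 18.4 and 16.0 CPM at 10 µM. SPATA18 fell by 0.71 against 0 µM (SE 0.184, adjusted p = 0.00639, and 0.0618 with total counts) and by 0.98 against 2 µM (adjusted p = 0.00125).

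AEN, a nuclease that digests nucleic acids in apoptotic cells, went the other way. It had 206, 213 and 133 CPM at 0 µM, 230, 181 and 162 CPM at 2 µM and 355, 378 and 343 CPM at 10 µM. All 10 µM libraries exceeded the other 6. AEN rose by 0.96 on the log2 scale against 0 µM (SE 0.213, adjusted p = 0.00237) and by 0.91 against 2 µM (adjusted p = 0.0047). The other 6 genes of this role, PERP, PHLDA3, TP53INP1, TRIAP1, SUSD6 and EI24, were called in no comparison. PERP, a membrane protein of desmosomes and apoptosis, had 120, 147 and 275 CPM at 0 µM and 313, 252 and 303 CPM at 10 µM (log2 change 0.68, adjusted p = 0.0614). Without 0 µM library 3 the change of PERP was 1.09 (adjusted p = 0.000871), and it also passed without 2 µM library 3 (0.0458), without both (0.000178), with DESeq2 (0.044), with total counts (0.01) and without the low-count filter (0.00867). PHLDA3, an inhibitor of the kinase AKT, had 53.1, 45.0 and 26.7 CPM at 0 µM and 67.4, 57.0 and 68.9 CPM at 10 µM. The PHLDA3 groups did not overlap (log2 change 0.63, adjusted p = 0.0633; 0.0317 without 0 µM library 1). EI24, a protein of the endoplasmic reticulum, had 150, 164 and 91.2 CPM at 0 µM and 97.8, 97.8 and 110 CPM at 10 µM. Its change of -0.40 (adjusted p = 0.131) became -0.64 without 0 µM library 3 (adjusted p = 0.00486; 0.00341 without 2 µM library 3 as well). For these genes the untreated library 3 lay apart from the other untreated libraries, high for PERP and low for PHLDA3 and EI24.

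**Figure D2:**
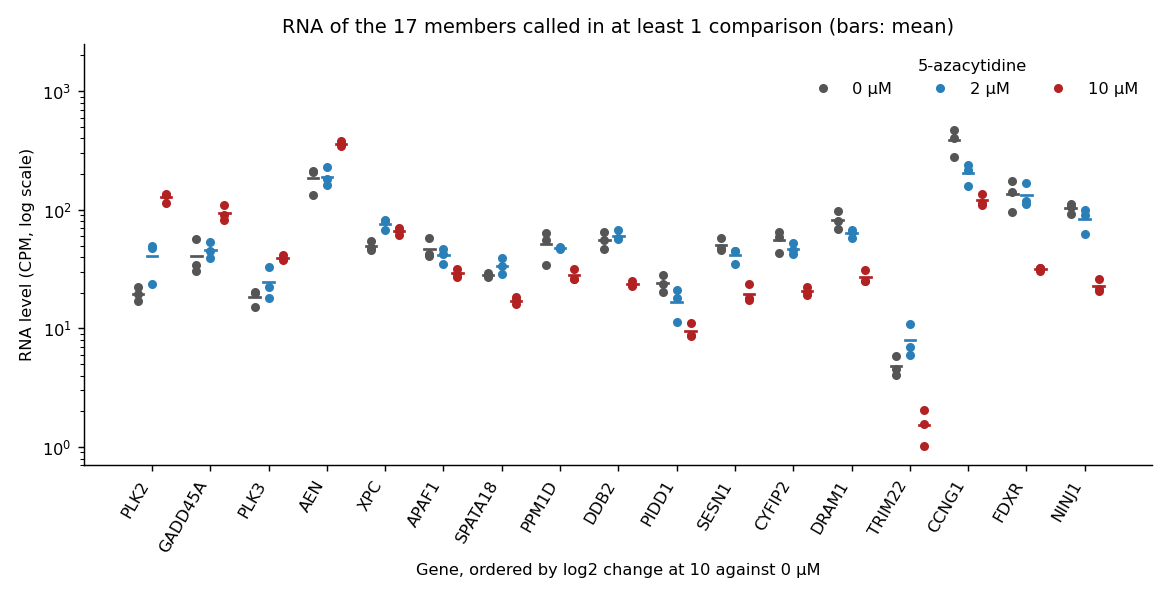
RNA level in CPM (y axis, log scale) of the 17 p53 target genes called in at least 1 comparison, ordered by their change at 10 against 0 µM; each point is 1 library and each short bar the mean of 3 libraries at a dose. The 3 libraries at 10 µM sit above all untreated libraries for the first 5 genes (PLK2 to XPC) and below them for the other 12.

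Among the 8 genes of growth arrest and growth signalling, 3 rose at 10 against 0 µM (37.5%, where 23.0% of all genes rose) and 1 fell (12.5%, where 25.1% fell). PLK2, a polo-like kinase of the stress response that is unlike the mitotic kinase PLK1, showed the largest rise of any member. It had 16.9, 22.5 and 19.3 CPM at 0 µM, 47.6, 49.9 and 23.8 CPM at 2 µM and 133, 136 and 114 CPM at 10 µM. The 3 doses did not overlap. PLK2 rose by 2.70 on the log2 scale at 10 µM (SE 0.267, adjusted p = 5.25e-06) and by 1.66 between 2 and 10 µM (adjusted p = 0.000296). It rose by 1.04 at 2 µM (SE 0.254, adjusted p = 0.0366). The call at 2 µM did not hold when libraries were blocked by replicate number within these 2 doses (adjusted p = 0.0649), in a fit of these doses alone (0.106), or without 0 µM library 1 or 2, 2 µM library 1 or 2, or any 10 µM library (0.0531 to 0.155). PLK3, a related kinase, had 15.1, 20.5 and 19.99 CPM at 0 µM, 32.9, 22.3 and 18.2 CPM at 2 µM and 37.9, 41.2 and 38.4 CPM at 10 µM. PLK3 rose by 1.08 against 0 µM (SE 0.233, adjusted p = 0.00201). Its rise of 0.68 against 2 µM (adjusted p = 0.0334) was lost without 2 µM library 2, 2 µM library 3 or any 10 µM library (0.0774 to 0.142), and without libraries 3 of 0 and 2 µM (0.081).

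GADD45A, a small acidic protein that binds stress kinases and the replication clamp, had 30.8, 34.1 and 57.1 CPM at 0 µM, 53.7, 45.0 and 39.5 CPM at 2 µM and 89.6, 81.3 and 110 CPM at 10 µM. Only the highest dose stood clear of the others. GADD45A rose by 1.20 on the log2 scale against 0 µM (SE 0.243, adjusted p = 0.00131) and by 1.02 against 2 µM (adjusted p = 0.00516). TRIM22 encodes a ubiquitin ligase induced by p53 and interferon. It had 4.53, 4.01 and 5.81 CPM at 0 µM, 5.95, 6.99 and 10.8 CPM at 2 µM and 1.03, 2.06 and 1.56 CPM at 10 µM. All 2 µM libraries were above all untreated ones, a change of 0.73 that did not pass (adjusted p = 0.25), and all 10 µM libraries were below them. TRIM22 fell by 1.62 against 0 µM (SE 0.339, adjusted p = 0.00161) and fell by 2.35 against 2 µM (adjusted p = 0.000197). BTG2, an antiproliferative protein that drives mRNA decay, had 11.3, 17.2 and 13.7 CPM at 0 µM, 13.7, 14.1 and 14.4 CPM at 2 µM and 8.28, 9.90 and 10.4 CPM at 10 µM. Its 10 µM libraries lay below all 6 others without passing the test. BTG2 had an adjusted p of 0.0508 against 0 µM (log2 change -0.56) and 0.0601 against 2 µM. It passed without 0 µM library 1 (0.0334) or 3 (0.0452), and without libraries 3 of 0 and 2 µM (0.0388).

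GDF15, a secreted stress hormone and frequent marker of p53 activity, could not be read at this spread. It had 167, 320 and 1021 CPM at 0 µM, 314, 194 and 282 CPM at 2 µM and 362, 198 and 404 CPM at 10 µM. The change of -0.64 at 10 µM (SE 0.497, adjusted p = 0.307) and that of -0.94 at 2 µM (adjusted p = 0.352) rested on 0 µM library 3, without which they were 0.38 (adjusted p = 0.344) and 0.095 (adjusted p = 0.901). Without libraries 3 of 0 and 2 µM they were 0.38 (edgeR adjusted p = 0.319) and 0.0571 (edgeR adjusted p = 0.94). With every library but no low-count filter, GDF15 was called as lower in both comparisons. Its changes were then -0.603 at 10 µM (edgeR adjusted p = 0.0329) and -0.903 at 2 µM (edgeR adjusted p = 0.00325). FBXW7, a ubiquitin ligase subunit that degrades cyclin E, and ZMAT3, an RNA-binding splicing regulator, were called in no comparison. Their mean levels at 0, 2 and 10 µM were 36.7, 33.5 and 44.3 CPM for FBXW7 and 67.8, 64.5 and 68.3 CPM for ZMAT3.

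The repair genes included members on both sides. DDB2, the subunit that recognises ultraviolet damage in nucleotide excision repair, had 65.5, 46.4 and 55.7 CPM at 0 µM, 67.3, 56.9 and 57.6 CPM at 2 µM and 22.8, 24.96 and 23.2 CPM at 10 µM. Its libraries at 0 and 2 µM overlapped, and DDB2 fell by 1.24 on the log2 scale at 10 against 0 µM (SE 0.183, adjusted p = 0.000129) and by 1.36 against 2 µM (adjusted p = 0.000111). XPC, which recognises helix distortion in the same pathway, had 54.3, 47.2 and 46.1 CPM at 0 µM, 81.6, 67.6 and 80.0 CPM at 2 µM and 61.7, 70.9 and 66.8 CPM at 10 µM. All 6 treated libraries were above all untreated ones. XPC rose by 0.43 at 10 µM (SE 0.167, adjusted p = 0.0474), just inside the threshold. The larger change of 0.63 at 2 µM had an adjusted p of 0.0521 (0.0388 with DESeq2). The rise at 10 µM was not called with DESeq2 (0.066), without the low-count filter (0.143), with the block over all doses (0.0502) or on leaving out any single library other than 2 µM library 2 (0.0525 to 0.134). It was also lost without libraries 3 of 0 and 2 µM (0.0866).

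RRM2B, the p53-inducible ribonucleotide reductase subunit that supplies nucleotides for repair, had 74.0, 96.8 and 104 CPM at 0 µM, 154, 218 and 119 CPM at 2 µM and 154, 126 and 130 CPM at 10 µM. Every treated library exceeded every untreated one, yet the adjusted p was 0.062 at 2 µM (log2 change 0.83, SE 0.23) and 0.0515 at 10 µM (log2 change 0.58, SE 0.229). Without 0 µM library 3 both comparisons passed, at 0.0359 and 0.0358, as did 2 µM without 2 µM library 3 (0.0139), and DESeq2 also called both (0.0263 and 0.0489). RRM2B at 10 µM likewise passed without 2 µM library 2 (0.0242) or 3 (0.0298). Without libraries 3 of 0 and 2 µM, RRM2B passed at 2 µM (0.00378) and at 10 µM (0.0121). POLH, the polymerase that copies past ultraviolet lesions, averaged 42.6, 52.4 and 47.8 CPM at 0, 2 and 10 µM and was called in no comparison.

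Of the 4 genes of metabolism and redox balance, 2 fell at 10 against 0 µM (50%, where 25.1% of all genes fell) and none rose (23.0% of all genes). FDXR, ferredoxin reductase of the mitochondrial electron chain for steroids and iron-sulfur clusters, had 174, 141 and 96.1 CPM at 0 µM, 169, 113 and 118 CPM at 2 µM and 32.2, 30.7 and 32.4 CPM at 10 µM. Levels at 0 and 2 µM overlapped. FDXR fell by 2.11 on the log2 scale at 10 against 0 µM (SE 0.238, adjusted p = 1.49e-05) and fell by 2.07 against 2 µM (adjusted p = 2.99e-05). SESN1, a sestrin that restrains mTORC1, had 47.9, 58.3 and 45.8 CPM at 0 µM, 34.99, 44.9 and 45.0 CPM at 2 µM and 18.0, 23.5 and 17.5 CPM at 10 µM. SESN1 fell by 1.36 against 0 µM (SE 0.2, adjusted p = 0.000121) and by 1.08 against 2 µM (adjusted p = 0.00103). TP53I3, a quinone oxidoreductase, had 57.8, 46.1 and 28.3 CPM at 0 µM, 98.1, 78.2 and 60.9 CPM at 2 µM and 65.1, 61.9 and 74.1 CPM at 10 µM. All its treated libraries lay above all untreated ones, with adjusted p-values of 0.0878 at 2 µM (log2 change 0.84) and 0.0644 at 10 µM (log2 change 0.61). When libraries were blocked by replicate number within 0 and 2 µM, the change of TP53I3 at 2 µM was called (0.90, adjusted p = 0.0304), as it was without 2 µM library 3 (0.0426) and without libraries 3 of 0 and 2 µM (0.0229). At 10 µM it was called without 0 µM library 1 (0.0226). TIGAR, which lowers glycolytic flux, averaged 3.26, 3.64 and 3.48 CPM and was called in no comparison.

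The chromatin of the members was followed through the 113 peaks that the authors assigned to them. At 10 against 0 µM, 26 of these peaks rose and 25 fell, against 29.9% and 27.6% of all peaks. At 2 against 0 µM, 19 rose and 7 fell, against 15.5% and 7.30% of all peaks. At 10 against 2 µM, 20 rose and 29 fell, against 27.5% and 27.6%. Their median log2 changes were 0.07, 0.04 and 0.07, beside 0.05, 0.02 and 0.06 over all peaks. The 45 peaks annotated as promoter, over 28 members, gave smaller counts: 7 rose and 4 fell at 10 against 0 µM, where 20.5% and 14.9% of all promoter peaks did so. At 2 against 0 µM 4 of them rose and none fell by edgeR's quasi-likelihood test, where the shares over all promoter peaks were 7.04% and 5.01% (5 were higher and 2 lower at an unadjusted p below the same limit, and DESeq2 gave 3 and 0). In the other 68 peaks, 19 rose and 21 fell at 10 against 0 µM, where 34.6% and 34.1% of all such peaks did so.

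**Figure D3:**
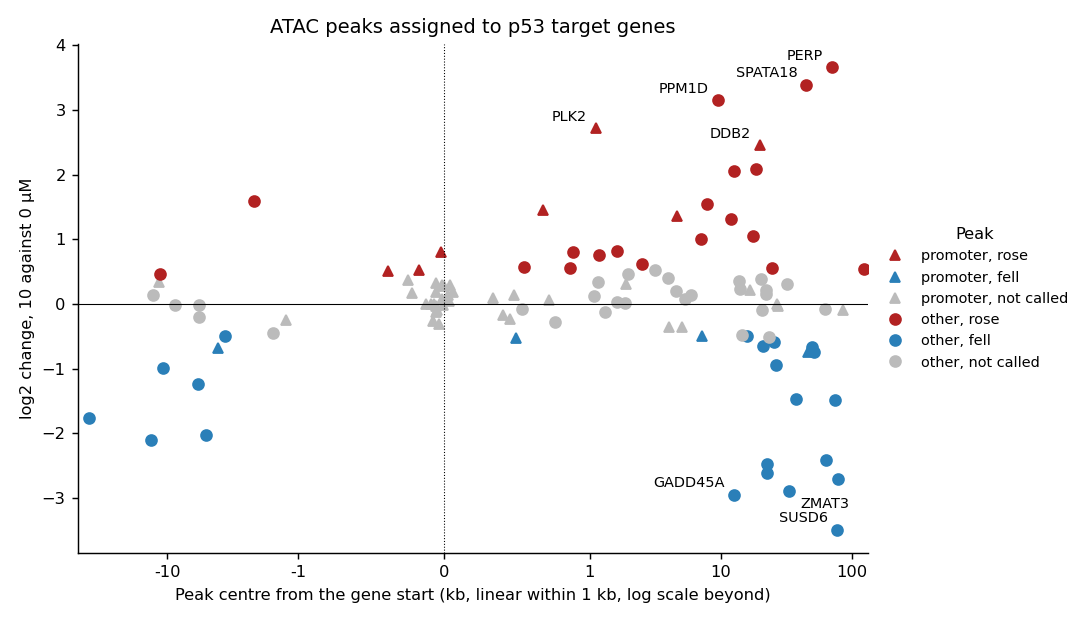
Log2 change in ATAC signal at 10 against 0 µM (y axis) of the 113 peaks assigned to p53 target genes, by the distance of the peak's centre from the RefSeq gene start along the gene's direction (x axis in kb, linear within 1 kb and log scale beyond); triangles are promoter peaks, circles all others, and grey points were not called. Peaks close to the start sit near 0, while the largest changes in both directions, from -3.49 at SUSD6 to 3.67 at PERP, lie more than 1 kb away.

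The promoter peak with the highest count of each gene changed in few members. At 10 against 0 µM, 3 of 28 such peaks rose (PLK2, POLH and SUSD6) and 1 fell (NINJ1), against 18.0% and 12.8% of the main promoter peaks of 12397 genes. By DESeq2, 1 rose and 1 fell. At 2 against 0 µM none of the 28 was called by edgeR's quasi-likelihood test (unadjusted, 2 had a p under 0.05 and were lower; DESeq2 called 0), against 3.76% and 5.77% of all genes' main promoter peaks. At 10 against 2 µM, 2 rose (GADD45A and POLH) and 1 fell (NINJ1), against 27.2% and 9.82%. The GADD45A call was lost without 10 µM library 1 (adjusted p = 0.175). Across the 28 members the log2 changes of these peaks at 10 against 0 µM ran only from -0.50 to 0.80. Of the 11 members whose RNA fell at 10 µM and that had a promoter peak, 10 had a main promoter peak that was not called and 1 had a peak that fell. Of the 4 whose RNA rose, 1 had a peak that rose.

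**Figure D4:**
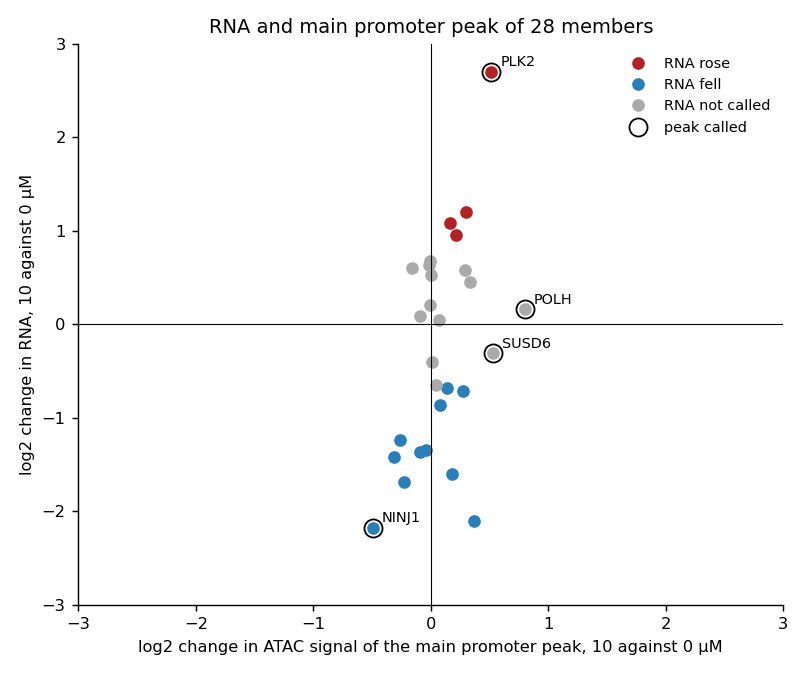
Log2 change in RNA (y axis) against log2 change in ATAC signal of the promoter peak with the highest count (x axis), both at 10 against 0 µM, for the 28 p53 target genes with a promoter peak; colour gives the RNA call and a ring marks a called peak. RNA changes run from -2.18 to 2.70 while the peaks stay between -0.50 and 0.80, and only 4 peaks are ringed.

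PLK2 was the only member whose RNA and main promoter peak both rose at 10 against 0 µM. Its main promoter peak, chr5:58460219-58460719, had 14.8, 21.1 and 24.2 CPM at 0 µM, 19.9, 23.7 and 24.96 CPM at 2 µM and 30.7 and 27.0 CPM at 10 µM. It rose by 0.52 on the log2 scale at 10 µM (SE 0.174, adjusted p = 0.0114). This call was lost without 0 µM library 1 (0.143), without 10 µM library 1 (0.122) and with DESeq2 (0.0572). A second PLK2 peak inside the gene, chr5:58458716-58459216 and 1.12 kb from its start, had 3.88, 2.31 and 2.65 CPM at 0 µM, 6.53, 6.19 and 6.14 CPM at 2 µM and 19.2 and 18.5 CPM at 10 µM. The doses did not overlap, and the RNA had the same order. This peak rose by 1.14 at 2 µM (SE 0.279, adjusted p = 0.00306) and by 2.73 at 10 µM (SE 0.244, adjusted p = 2.41e-11).

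The promoter peak that fell at NINJ1 lay inside the gene. This peak, which had the highest count, is chr9:93126816-93127316, 7.18 kb from the start. It had 25.5, 30.2 and 24.4 CPM at 0 µM, 31.3, 32.0 and 29.9 CPM at 2 µM and 18.6 and 19.6 CPM at 10 µM. It fell by 0.50 on the log2 scale against 0 µM (SE 0.163, adjusted p = 0.00958; 0.0585 without 10 µM library 1). The peak over the gene start, chr9:93134055-93134555, averaged 25.6, 21.4 and 23.6 CPM and was not called (adjusted p = 0.556 at 10 against 0 µM). POLH had a called promoter peak without a called RNA change: its start-site peak, chr6:43575917-43576417, went from 22.3, 23.8 and 20.5 CPM at 0 µM to 41.7 and 35.4 CPM at 10 µM (log2 change 0.80, SE 0.153, adjusted p = 3.16e-05), while its RNA was not called. The start-site peak of SUSD6 averaged 14.2 CPM at 0 µM and 20.4 CPM at 10 µM (adjusted p = 0.0185), also with no call in RNA. The SUSD6 groups overlapped, and this call was lost with DESeq2 (0.0996), with the block over all doses (0.0709) and without 0 µM library 1 or 3 or 10 µM library 1 (0.081 to 0.662).

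DDB2 and FDXR each gained an internal peak while their RNA fell. The DDB2 peak, chr11:47234191-47234691, lies 19987 bases into the gene and is annotated as a promoter. It had 6.06, 4.08 and 4.73 CPM at 0 µM, 20.3, 24.1 and 19.4 CPM at 2 µM and 22.9 and 31.1 CPM at 10 µM. All treated libraries stood above all untreated ones. This peak rose by 2.12 on the log2 scale at 2 µM (SE 0.208, adjusted p = 1.4e-08) and by 2.46 at 10 µM (SE 0.211, adjusted p = 9.37e-12). DDB2 RNA was not called at 2 µM and fell by 1.24 at 10 µM. The FDXR peak, chr17:74868119-74868619 and 4.62 kb into the gene, had 5.58, 7.61 and 7.95 CPM at 0 µM, 19.6, 23.0 and 17.7 CPM at 2 µM and 16.5 and 20.9 CPM at 10 µM. It rose by 1.46 at 2 µM (SE 0.195, adjusted p = 1.93e-06) and by 1.36 at 10 µM (SE 0.206, adjusted p = 7.66e-07). The difference between these doses was -0.10 (SE 0.19, adjusted p = 0.684). FDXR RNA fell by 2.11 at 10 µM.

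Large rises away from starts were found at PERP, whose RNA was not called over all libraries, and at SPATA18 and PPM1D, whose RNA fell at 10 µM. A peak outside PERP, chr6:138036946-138037446 and 70.2 kb from its start, had 3.64, 2.04 and 2.65 CPM at 0 µM, 5.15, 4.13 and 6.27 CPM at 2 µM and 30.1 and 38.3 CPM at 10 µM. It rose by 3.67 on the log2 scale at 10 µM (SE 0.234, adjusted p = 2.51e-14), and by 1.04 at 2 µM (adjusted p = 0.0103, lost without 0 µM library 2 or 2 µM library 3, at 0.12 and 0.142). Another peak 22.4 kb from the PERP start, chr6:138084750-138085250, fell by 2.47 at 10 µM (adjusted p = 1.23e-11), from a mean of 31.6 CPM to 5.81 CPM, so the peaks assigned to PERP moved both ways. At SPATA18 the peak in the 3′ UTR, chr4:52096048-52096548, averaged 1.71, 4.74 and 18.3 CPM. It rose by 1.29 at 2 µM (adjusted p = 0.00745) and by 3.39 at 10 µM (adjusted p = 6.56e-12), while SPATA18 RNA fell at 10 µM. An intron peak of PPM1D, chr17:60609394-60609894 and 9.45 kb from the start, averaged 1.85, 4.02 and 14.8 CPM and rose by 3.15 at 10 µM (adjusted p = 9.05e-10), with PPM1D RNA lower. Its rise of 1.26 at 2 µM (adjusted p = 0.0226) was lost with DESeq2 (0.0635) and without 0 µM library 2 or 3 or 2 µM library 2 or 3 (0.0677 to 0.194).

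The largest falls lay in introns, in a 3′ UTR and outside genes. In SUSD6, a peak 76.8 kb into the gene, chr14:69688135-69688635, had 10.2, 8.16 and 8.33 CPM at 0 µM, 4.47, 2.41 and 2.73 CPM at 2 µM and 0.134 and 1.74 CPM at 10 µM. It fell by 1.51 on the log2 scale at 2 µM (adjusted p = 0.000827) and by 3.49 at 10 µM (adjusted p = 4.62e-08). The size at 10 µM depended on the library: the SUSD6 peak's change was -2.33 without 10 µM library 1, no longer the largest fall, and -5.88 without 10 µM library 2. Of the 10 peaks assigned to SUSD6, 7 fell and 1 rose at 10 against 0 µM, where 27.6% of all peaks fell and 29.9% rose. SUSD6 RNA was not called. GADD45A carried a fall outside the gene, at chr1:67697612-67698112 and 12.7 kb from its start, from 17.9, 21.5 and 14.8 CPM at 0 µM through 7.90, 12.4 and 10.4 CPM at 2 µM to 2.01 and 2.83 CPM at 10 µM. This peak fell by 0.83 at 2 µM (edgeR adjusted p = 0.00267) and by 2.95 at 10 µM (edgeR adjusted p = 8.25e-11), opposite to GADD45A RNA. Of the 9 peaks assigned to GADD45A, 3 rose and 5 fell at 10 against 0 µM, beside those same shares of all peaks. The single ZMAT3 peak, in an intron at chr3:179038851-179039351, averaged 28.4, 24.2 and 3.77 CPM and fell by 2.90 at 10 µM (adjusted p = 6.17e-12), with ZMAT3 RNA not called. A peak annotated to a CYFIP2 3′ UTR, chr5:157288232-157288732, averaged 23.2, 14.2 and 4.02 CPM and fell by 0.77 at 2 µM (adjusted p = 0.00382, lost without 2 µM library 3 at 0.0861) and by 2.61 at 10 µM (adjusted p = 2.08e-10), the same direction as CYFIP2 RNA at 10 µM.

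At MDM2 and GDF15 some peaks were highest at the lower dose. The GDF15 peak at chr19:18389902-18390402, 3.99 kb from its start, had 5.09, 6.39 and 8.33 CPM at 0 µM, 26.5, 18.9 and 16.6 CPM at 2 µM and 7.91 and 10.0 CPM at 10 µM. It rose by 1.59 on the log2 scale at 2 µM (SE 0.216, adjusted p = 2.47e-06) and fell by 1.19 between 2 and 10 µM (adjusted p = 5.79e-05). An intron peak of MDM2, singled out after its values were seen, had 7.28, 6.25 and 11.7 CPM at 0 µM, 18.2, 14.4 and 12.96 CPM at 2 µM and 4.29 and 8.05 CPM at 10 µM (chr12:68831207-68831707). It rose by 0.83 at 2 µM (SE 0.237, adjusted p = 0.0103) and fell by 1.33 between 2 and 10 µM (adjusted p = 0.000144). The MDM2 call at 2 µM was lost with DESeq2 (0.0536) and without 0 µM library 1 or 2 or 2 µM library 1 (0.0507 to 0.132). The AEN and PHLDA3 peaks that follow were likewise not among the peaks chosen by size of change. At AEN, whose RNA rose at 10 µM, an intron peak at chr15:88623060-88623560 went from 4.37, 7.75 and 10.8 CPM at 0 µM through 16.5, 14.1 and 12.8 CPM at 2 µM to 33.7 and 32.8 CPM at 10 µM. The AEN peak rose at each step, by 0.85 at 2 µM (adjusted p = 0.00436) and by 1.23 from 2 to 10 µM (adjusted p = 3.72e-06), although AEN RNA was not called at 2 µM. PHLDA3 had 8 assigned peaks, of which 5 rose and 1 fell at 10 against 0 µM, where 29.9% of all peaks rose and 27.6% fell. The peak 7.83 kb from its start, chr1:201461111-201461611, averaged 15.8, 22.6 and 46.8 CPM and rose by 1.55 at 10 µM (adjusted p = 6.53e-10).

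RNA does not show how much p53 protein was present. Of 15 regulators and upstream kinases tested, 6 rose (40%) and 5 fell (33.3%) at 10 µM, where 23.0% and 25.1% of all genes did so. At 2 µM 1 rose (6.67%, against 3.22% of all genes) and none fell (1.06% of all genes) by edgeR's quasi-likelihood test (3 higher and 2 lower at an unadjusted p under 0.05, and 1 and 1 by DESeq2). CDKN2A, the locus of the MDM2 inhibitor ARF and of the cyclin kinase inhibitor p16, had 1.41, 2.13 and 1.71 CPM at 0 µM, 17.5, 10.1 and 6.46 CPM at 2 µM and 17.6, 12.4 and 22.0 CPM at 10 µM. CDKN2A rose at both doses, by 2.69 at 2 µM (SE 0.374, adjusted p = 0.00202) and by 3.30 at 10 µM (SE 0.382, adjusted p = 1.85e-05). The checkpoint kinase gene CHEK2 averaged 49.6 ± 12.6 CPM (SD, n = 3) at 0 µM and 10.8 ± 1.40 CPM (SD, n = 3) at 10 µM, a log2 change of -2.20 (adjusted p = 6.73e-06 in the edgeR fit). TP53BP1, a scaffold at DNA breaks, averaged 54.4 ± 4.59 CPM and 112 ± 6.85 CPM (SD, n = 3 each) and rose by 1.04 (edgeR adjusted p = 0.000186).

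Among p53 targets outside the 35, 33 of 36 genes could be tested, and 8 rose and 12 fell at 10 µM, with a median log2 change of -0.31. These are 24.2% and 36.4%, against 23.0% and 25.1% of all genes. PMAIP1, the BH3 protein NOXA, had 0.50, 2.03 and 1.38 CPM at 0 µM, 7.35, 10.9 and 2.03 CPM at 2 µM and 34.8, 25.2 and 23.6 CPM at 10 µM. PMAIP1 rose by 4.40 at 10 µM (SE 0.586, adjusted p = 5.65e-05). It rose by 2.36 at 2 µM (adjusted p = 0.0294), a call lost with the block over 0 and 2 µM, at 0.0752, and without 0 µM library 1, 2 µM library 1 or 2 µM library 2, at 0.0895 to 0.14. SESN2, the sestrin that is also induced by nutrient and ribosome stress, rose from 26.7, 21.9 and 43.4 CPM to 332, 347 and 258 CPM at 10 µM (log2 change 3.35, adjusted p = 5.37e-06), whereas its paralogue SESN1 fell. CDKN1A, the cell cycle inhibitor p21, rose from 82.2, 110 and 127 CPM to 343, 292 and 310 CPM (log2 change 1.56, adjusted p = 7.67e-05). The TRAIL receptor genes TNFRSF10A and TNFRSF10D rose by 1.65 and 1.91 at 10 µM (adjusted p = 3.18e-05 and 2.57e-05), while their paralogue TNFRSF10B was not called over all libraries. CMBL, also among the smallest adjusted p-values of this list, fell by 1.82 at 10 µM (SE 0.258, adjusted p = 9.45e-05 in the edgeR fit). TNFRSF10C, another paralogue of TNFRSF10B in this list, averaged 0.341, 2.44 and 0.245 CPM at 0, 2 and 10 µM. In the edgeR fit it was not called at 10 against 0 µM (log2 change -0.48, adjusted p = 0.519). It rose by 2.81 at 2 µM (edgeR adjusted p = 0.0132). The other genes named here were picked by adjusted p, and in the whole list the 12 that fell outnumber the 8 that rose. At 2 µM, 2 genes of this list rose (6.06%, against 3.22% of all genes) and none fell (1.06% of all genes) by edgeR's quasi-likelihood test (6 higher and 3 lower at an unadjusted p under 0.05, and 2 rose and 0 fell by DESeq2).

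The last list holds 12 genes known to be lowered through p21 and the DREAM repressor complex, which shuts off cell cycle genes. All 12 fell at 10 against 0 µM (100%, where 25.1% of all genes fell), with a median log2 change of -3.49. Whether p21 or DREAM lowered them here was not tested. CCNB2, cyclin B2, went from 128, 104 and 81.8 CPM at 0 µM through 70.9, 68.0 and 76.1 CPM at 2 µM to 2.80, 5.53 and 4.99 CPM at 10 µM (log2 change -4.55 against 0 µM, adjusted p = 2.11e-07). At 2 µM edgeR's quasi-likelihood test called none of the 12, where 3.22% of all genes rose and 1.06% fell. Before adjustment 4 of the 12 had a p under 0.05, and by DESeq2 2 fell. All 12 changes at 2 µM were below 0, with a median of -0.43.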

How the data were processed

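HepG2 RNA (9 libraries) and ATAC DNA (8 libraries) were compared between 5-azacytidine doses. The authors deposited whole-number counts per gene and per peak. The submitters' processing notes name HISAT2 2.2.1, HTSeq 2.0.4, DESeq2 1.42.1, DiffBind 3.12.0 and hg38 without roles. The peak caller, and whether counting used the strand of the stranded RNA kit, are not given in the sources used here. Symbols were matched to gene IDs for 62030 of 63187 rows. Peaks were linked to genes by the symbol the authors deposited with each peak, and gene starts, positions and promoter sequences came from RefSeq (GRCh38.p14). Promoter windows were used for 29 of the 35 members.

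Counts were tested with edgeR 4.0.16 (R 4.3.3) by quasi-likelihood F-test, in 1 fit per assay over all libraries with TMM scaling, filterByExpr, a prior count of 0.125 and Benjamini-Hochberg adjustment within each comparison, at 0.05. The filter kept 18999 genes and all 58372 peaks. CPM are counts scaled to the TMM-adjusted library size, with no gene length, so levels of different genes are not compared. The scripts were tested on simulated data. Alternatives were other scalings, filters, DESeq2 1.42.0, compared doses alone, a replicate block and leaving out libraries. Same-numbered RNA libraries of 0 and 2 µM were taken to deviate together, because all their correlations were above 0.1 (0.194, 0.264 and 0.283). A block over these doses was therefore added after that check. All members were described, with full values for those called. At most 6 genes of each other list (regulators, of which 1 of 16 was not analysed here, other targets, DREAM genes) were named by smallest adjusted p, and up to 5 peaks per direction by size of change. TNFRSF10C was named in addition, beside its paralogues. The members and lists were chosen with earlier results of these data known. The values of 1 gene of the regulator list are not reported here.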

Additional observations from a re-analysis of the deposited data

How the results depend on the processing

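Of the called changes of named genes and peaks that were recomputed, 44 of 54 in RNA and 45 of 61 in ATAC kept their call under every alternative tried. These include genes outside the members picked by smallest adjusted p, and many peaks picked by size of change. Such picks favour stable calls, so the shares do not describe the members as a set. Member counts depended on the processing, most at 2 µM. For RNA at 10 against 0 µM, the 5 risers became 12 with total counts and 8 without the low-count filter, with the replicate block over all doses, and without libraries 3 of 0 and 2 µM. Over all genes, the 4371 rises became 5788, 4574, 4591 and 4953 in these settings. For RNA at 2 against 0 µM, the 1 riser became 4 with total counts, 3 without the filter or with DESeq2, 0 in a fit of these doses alone and 5 without libraries 3. The 1 that fell became 0, 2, 1, 0 and 2. Over all genes, the 611 rises became 904, 1030, 925, 352 and 1382 in these settings. The 202 falls over all genes became 94, 673, 472, 57 and 788. The replicate block over 0 and 2 µM alone was added after the pairing check. It left 1 riser (TP53I3 in place of PLK2) and 1 that fell (CCNG1). For no other pair of doses were all same-numbered correlations above 0.1 (RNA against 10 µM -0.0652 to 0.0559, ATAC -0.224 to 0.134). Some differently numbered libraries also exceeded 0.1, up to 0.268 for ATAC 2 µM library 3 and 10 µM library 1. For ATAC at 2 against 0 µM, the 19 peaks that rose became 10 with DESeq2 and the 7 that fell became 4 with DESeq2 or the replicate block. Over all peaks, the 9044 rises became 5825 with DESeq2. The 4260 falls over all peaks became 2879 with DESeq2 and 3255 with the block.

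Leaving out 1 library at a time gave, for RNA, 4 to 7 risers and 11 to 15 falls at 10 against 0 µM, 0 to 3 and 0 to 1 at 2 against 0 µM, and 3 to 4 and 8 to 13 at 10 against 2 µM. For ATAC it gave 21 to 28 and 22 to 26, 10 to 20 and 3 to 11, and 16 to 26 and 22 to 33. The ATAC rises at 2 µM were 10 without 0 µM library 2 and 12 without 0 µM library 3, and the falls were 4 without 0 µM library 2 or 2 µM library 2, 3 without 2 µM library 3, and 11 without either 10 µM library. Over all peaks, the 9044 rises at 2 µM became 5324 without 0 µM library 2 and 7043 without 0 µM library 3. The 4260 falls over all peaks became 3246 without 0 µM library 2. They became 2569 without 2 µM library 2 and 2405 without 2 µM library 3. Where 1 ATAC library was left at 10 µM, it was assumed to vary like the other groups. Signs turned only for changes that were not called in the reported fit. GDF15 at 10 µM was 0.382 without libraries 3 and -1.06 to 0.381 on leaving out 1 library, and at 2 µM 0.0571 and -1.35 to 0.095. MDM2 RNA at 10 µM ran from -0.0367 to 0.152 on leaving out 1 library, and reached 0.299 over all alternatives tried. The MDM2 element's peak was -0.0019 with total counts and -0.0987 to 0.11 on leaving out 1 library (-0.0137 without 0 µM library 3), and the AEN element's peak ran from -0.161 to 0.385. The cause was not tested. With 3 or fewer libraries a dose, members with an adjusted p near 0.05 (XPC, RRM2B, BTG2, TP53I3, PERP and PHLDA3) cannot be placed on either side.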
